A study of Mus musculus with 6 samples.

Results

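The genes described here encode the proteins of the cytosolic ribosome. They were taken from the count table by symbol: every row named Rpl or Rps plus a number (with an optional ending a, x, l, l1 or l2), together with Rplp0, Rplp1, Rplp2 and Rpsa, and without rows marked as pseudogenes by a -ps ending. The rule gave 86 of the 49997 rows of the table, 53 of the large and 33 of the small subunit. Of these, 76 are the main form of a ribosomal protein (called core genes below, 46 large and 30 small), 6 are paralogue forms (Rpl3l, Rpl7l1, Rpl10l, Rpl22l1, Rpl39l and Rps27l) and 4 are retrocopies (Rps4l, Rpl6l, Rpl32l and Rps12l1), which the GENCODE annotation lists as processed pseudogenes. The study sequenced bulk RNA of long-term hematopoietic stem cells (LT-HSCs), from which all blood lineages are renewed, sorted from 4-month-old C57BL/6J mice by their level of Asrij, the protein encoded by Ociad1. Asrij low and Asrij high cells gave 3 libraries each. The labels do not say whether the mice carry a modified Ociad1 allele, how Asrij was detected or how the low and high gates were set, whether the libraries came from separate animals, or whether animals were pooled, so each p-value measures the spread between these libraries, which may be technical.

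A ribosome joins a small subunit, which reads the mRNA, to a large subunit, which forms the peptide bonds, and nearly every ribosomal protein is needed in 1 copy per ribosome. Ribosomal protein mRNAs are among the most abundant in a cell and many begin with a run of pyrimidines, the 5′ terminal oligopyrimidine (TOP) motif, through which mTOR signalling and the RNA-binding protein LARP1 set their translation. Blood stem cells are known for a low rate of protein synthesis. Loss of 1 copy of many of these genes causes Diamond-Blackfan anemia, a failure of red cell production, and unassembled RPL5 and RPL11 bind MDM2 and so stabilise p53.

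The libraries held 24707012 to 46240743 counts in Asrij low and 62732782 to 72855125 in Asrij high. Ociad1 itself was at 57.9, 50.3 and 46.7 CPM (counts scaled to a common library size) in Asrij low and 86.9, 77.6 and 76.3 in Asrij high (log2 fold change 0.64 ± 0.16 SE, edgeR adjusted p = 0.0115), in the direction of the labels; since the detection of Asrij is not described, this is a check of the direction only. At an edgeR adjusted p under 0.05, 21.7% of all genes tested were higher in Asrij high and 17.7% lower. The marker counts that follow use the same threshold and stand beside those shares. Of 12 stem cell markers, 11 were lower and none higher in Asrij high, with summed levels of 1798 to 2070 CPM in Asrij low and 501 to 929 in Asrij high, and none was at 0 in any library. All 12 markers of dividing cells were higher (787 to 1024 against 3884 to 5565 CPM). Of 14 erythroid markers 7 were higher, such as Klf1, and 5 lower, such as Hba-a1; their sum was 11700 to 81530 CPM in Asrij low, highest in replicate 3, and 5781 to 9879 in Asrij high. Granulocyte-monocyte markers (12 genes, 5 higher, 2 lower) summed to 542 to 2299 and 3582 to 4093 CPM, stroma markers (8 genes, all lower) to 242 to 779 and 23.4 to 75.8, lymphoid markers (10 of 11 tested, 8 lower) to 120 to 243 and 45.3 to 91.1, and megakaryocyte markers (6 genes, none called) to 465 to 725 and 311 to 1017. The T cell markers Cd3e and Cd3d and the stroma marker Col3a1 were at 0 in at least 1 library. The part of these cell types, and of dividing cells, in the ribosomal protein differences was not tested. In bulk samples, fewer cells of a type and less RNA per cell cannot be told apart.

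A larger part of the counts fell on ribosomal protein genes in Asrij high than in Asrij low LT-HSCs. The 86 genes took 3.75%, 4.34% and 2.51% of all counts in Asrij low replicates 1, 2 and 3, and 5.43%, 4.98% and 4.84% in Asrij high. The groups did not overlap, and Asrij low replicate 3 was the lowest. The mean was 3.54% ± 0.936 (SD, n = 3) against 5.08% ± 0.309 (SD, n = 3), a ratio of 1.44, and the 95% Wilson interval of a single library was at most 0.00771 percentage points to either side, for counting error only. With 3 libraries against 3, an exact two-sided permutation test of a single value cannot give a p below 0.1. The 10 most abundant genes took 9.68% to 19.4% of counts in Asrij low and 5.15% to 7.46% in Asrij high, and no ribosomal protein gene was among them. After mitochondrial genes and those 10 genes were set aside the shares were 4.21%, 4.87% and 3.19% against 5.83%, 5.40% and 5.12%, a ratio of 1.33. Without Asrij low replicate 3 the ratio of the shares was 1.26.

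**Figure D1:**
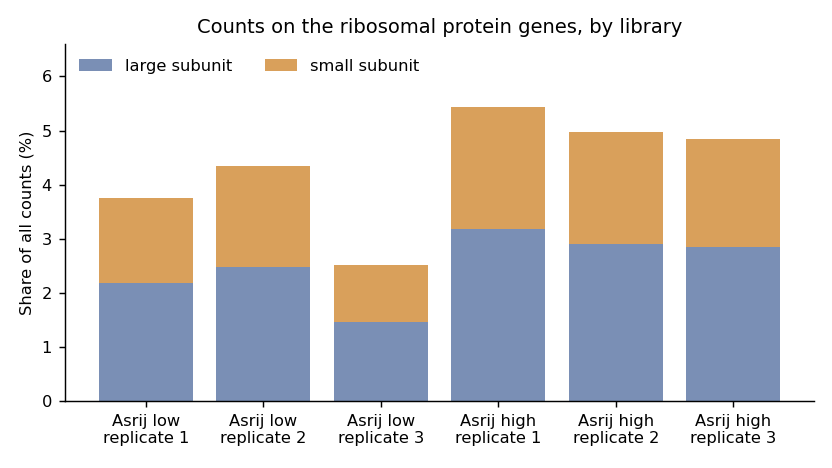
Share of all counts (%, vertical axis) that fell on the 86 ribosomal protein genes in each of the 6 libraries, with large subunit genes below and small subunit genes above in each bar. The bars reach 2.51% to 4.34% in Asrij low and 4.84% to 5.43% in Asrij high, and the division between the subunits is similar in every bar.

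Of the 84 ribosomal protein genes that passed the filter on low counts, 53 were higher in Asrij high and none was lower at an adjusted p under 0.05 (edgeR quasi-likelihood test, adjusted over all 21445 genes tested). Over all genes tested, 21.7% were called higher and 17.7% lower. The median log2 fold change was 0.81 for the ribosomal protein genes, from -1.67 to 2.53, and -0.02 for all genes tested; 82 of 84 values were above 0, and none of the genes below 0 had an unadjusted p under 0.05. In 65 genes every Asrij high library was above every Asrij low library and in none was the order opposite, where 30.2% and 24.8% of all genes tested were so ordered. All 53 called genes were among those 65. All 76 core genes passed the filter and all had a positive log2 fold change, the lowest 0.07 (Rpl22), with 48 called and 17 of these called at 2-fold or more. Among all 21445 genes tested, 2982 were called higher at 2-fold or more. The call of 29 of the 53 genes stood under every alternative fit. The count of called genes was 40 without Asrij low replicate 1, 40 without Asrij low replicate 3 and 35 without Asrij high replicate 1, where 17.9%, 18.4% and 13.7% of all genes were called higher.

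Large and small subunit genes gave similar counts and medians; the difference between the subunits was described and not tested. In the large subunit 30 of 46 core genes were called higher, with a median log2 fold change of 0.81, and in the small subunit 18 of 30, with a median of 0.79. Summed large over summed small subunit counts was 1.40, 1.34 and 1.41 in Asrij low and 1.42, 1.41 and 1.43 in Asrij high. The means, 1.38 ± 0.040 (SD, n = 3) and 1.42 ± 0.0087 (SD, n = 3), differed by less than the larger SD. Without the 3 most abundant genes of each subunit the ratio was 1.54, 1.49 and 1.61 in Asrij low (mean 1.54 ± 0.061 SD, n = 3) and 1.70, 1.61 and 1.72 in Asrij high (1.68 ± 0.060 SD, n = 3); the means then differed by more than the SD, and the groups did not overlap, although their nearest libraries were both at 1.61. Libraries ranked alike across genes: Asrij low replicate 3 was the lowest of the 6 libraries for 66 of 76 core genes, and Asrij high replicate 1 was the highest for 61. The core genes are therefore not independent of one another, and their counts describe these 6 libraries.

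**Figure D2:**
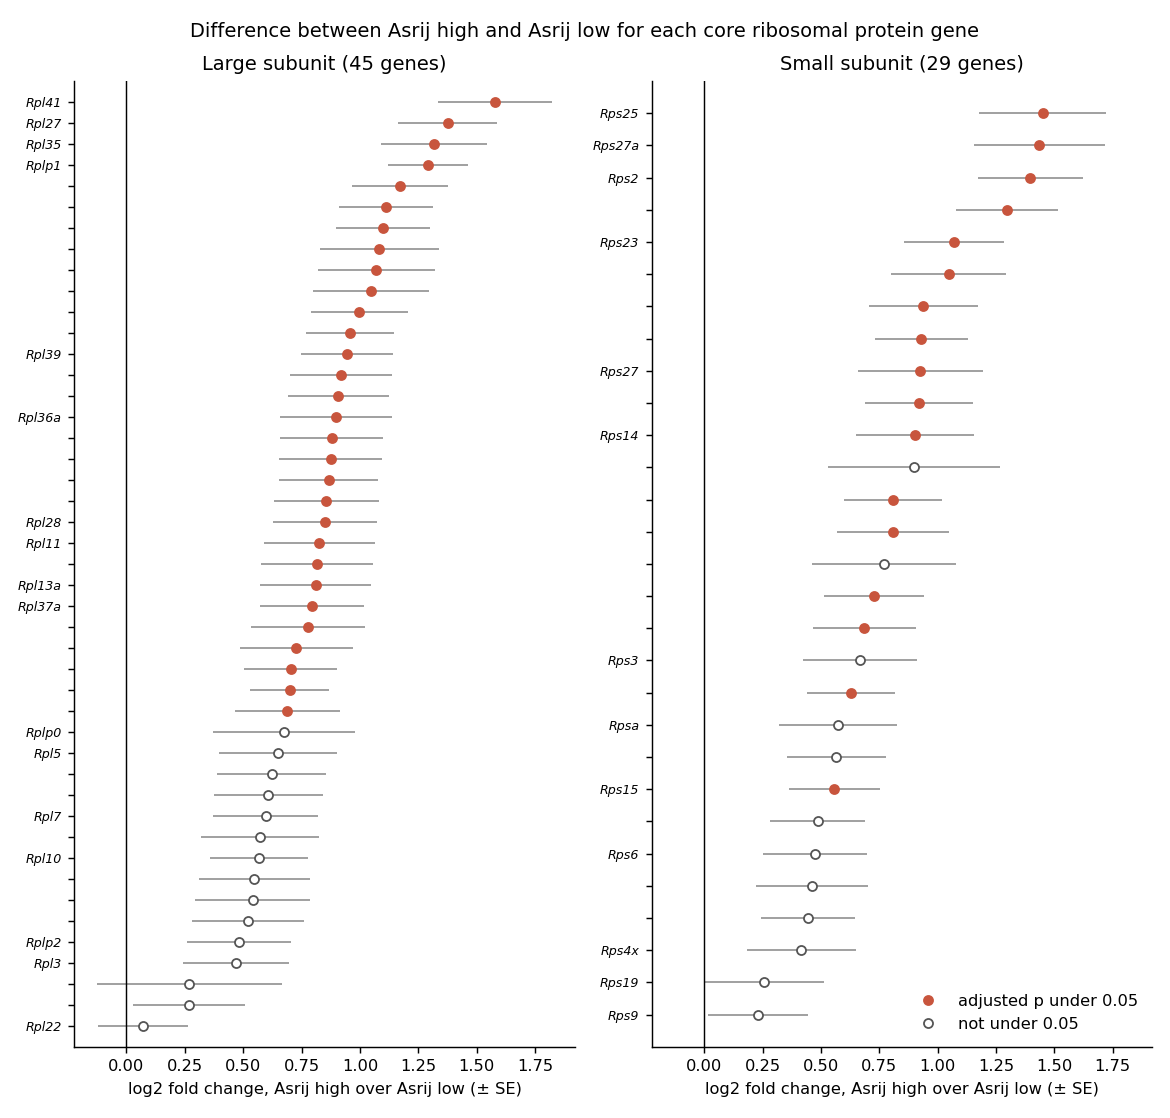
log2 fold change, Asrij high over Asrij low, of the plotted core genes of the large (left, 45 genes) and small (right, 29 genes) subunit, with its standard error as a horizontal line; genes named in the text are labelled. Filled points are the 30 and 17 genes with an adjusted p under 0.05, open points the others. All points lie to the right of 0, with Rpl41 at 1.58 and Rps25 at 1.45 at the top.

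In the small subunit the largest difference was in Rps27l. Rps27l, a paralogue of Rps27 known as a p53-responsive gene, was at 4.48, 9.56 and 6.64 CPM in Asrij low and 48.0, 24.7 and 46.0 CPM in Asrij high. Its log2 fold change was 2.53 ± 0.36 (SE; 5.76-fold, adjusted p = 9.55e-04), and the groups were far apart relative to their spread. Rps25, needed for initiation at some internal ribosome entry sites, was at 121, 195 and 103 CPM against 463, 286 and 396 (1.45 ± 0.27, adjusted p = 0.00315). Its exons overlap those of Trappc4 by 462 bases and of Ccdc84 by 206 bases on the opposite strand, and whether the counting used strand is not given in the sources used here, so reads of these genes cannot be told apart with certainty. Rps27a, which is made as a fusion with ubiquitin, was at 134, 225 and 104 CPM against 499, 354 and 400 (1.44 ± 0.28, adjusted p = 0.00392); its exons overlap those of Clhc1 by 160 bases on the opposite strand. Rps2, which lines the mRNA entry channel, was at 907, 1193 and 739 CPM against 2775, 2175 and 2524 (1.40 ± 0.23, adjusted p = 0.00169). In each of these 4 genes the lowest Asrij high library lay above the highest Asrij low library.

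The large subunit was led by Rpl41, the shortest ribosomal protein. It was at 561, 806 and 507 CPM in Asrij low and 2296, 1526 and 1779 CPM in Asrij high (log2 fold change 1.58 ± 0.24 SE, 2.99-fold, adjusted p = 0.00136), and the groups did not overlap. Rpl27 followed at 1.38 ± 0.21 and Rpl35, at the exit of the peptide tunnel, at 1.32 ± 0.23 (adjusted p = 0.00138 and 0.00219). The stalk, the arm that recruits elongation factors, is built from Rplp0, Rplp1 and Rplp2, and 1 of these 3 genes was called. Rplp1 was at 283, 308 and 258 CPM against 789, 616 and 673 (1.29 ± 0.17, adjusted p = 7.49e-04). Rplp0 was at 1001, 731 and 431 CPM against 1480, 1021 and 955, and Rplp2 at 263, 255 and 173 against 354, 367 and 244; in both the groups overlapped (log2 fold changes 0.68 and 0.48, adjusted p = 0.107 and 0.114).

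**Figure D3:**
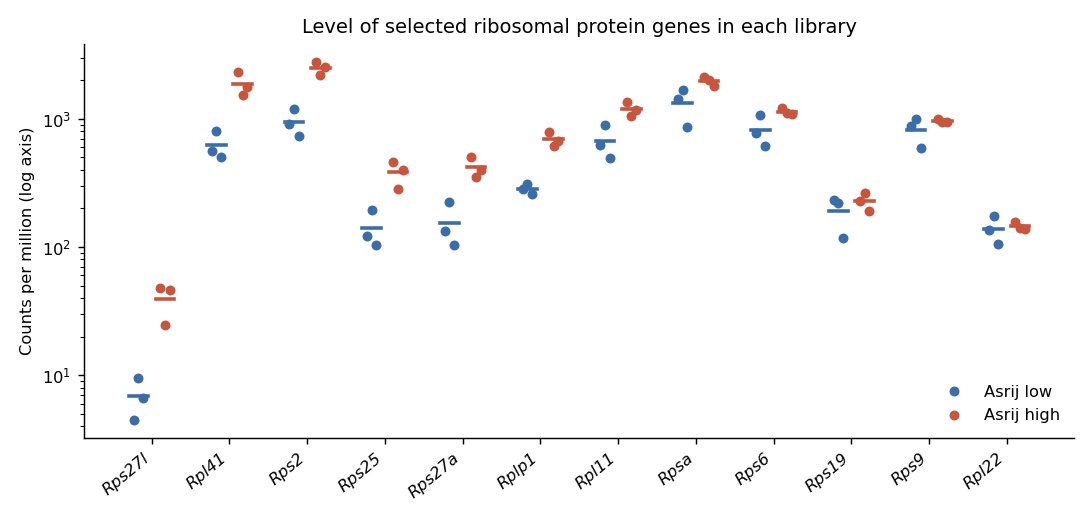
Level (CPM, log axis) of 12 ribosomal protein genes in each of the 3 Asrij low (blue) and 3 Asrij high (red) libraries, with a short line at each group's mean. The groups are separate from Rps27l to Rps6, while in Rps19, Rps9 and Rpl22 they overlap.

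The smallest differences were spread over both subunits. Rpl22, an RNA-binding protein of the large subunit known for its part in lymphocyte development, was at 136, 174 and 106 CPM in Asrij low and 157, 141 and 139 CPM in Asrij high (log2 fold change 0.07 ± 0.19 SE, adjusted p = 0.797). Rps9, a neighbour of Rps2 at the mRNA entry channel, was at 877, 992 and 587 CPM against 999, 942 and 943 (0.23 ± 0.21). Rps19, the gene most often mutated in Diamond-Blackfan anemia, was at 231, 222 and 118 CPM against 229, 262 and 191 (0.26 ± 0.26, adjusted p = 0.459). None of these 3 was called and all overlapped between the groups. Scaling by library totals alone put all 3 slightly below 0, at -0.20, -0.04 and -0.02. Outside the core genes, the paralogue Rpl39l had a log2 fold change of -1.67 ± 1.62 (adjusted p = 0.444) on at most 32 counts in any library, and the retrocopy Rps4l one of -0.06 ± 0.51 (adjusted p = 0.939). At the threshold, Rps15 was the last gene called (0.56, adjusted p = 0.0462) and Rps3 the first not called (0.67, adjusted p = 0.0537). Rps15 lost its call without Asrij low replicate 1 (adjusted p = 0.0805), low replicate 3 (0.128), high replicate 1 (0.179) or high replicate 3 (0.0862), and with RLE size factors (0.0586). Its call was also lost with library totals alone (0.301) and with upper quartile scaling (0.208).

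Genes of known medical or signalling interest fell on both sides of the threshold. Of 22 Diamond-Blackfan anemia genes 15 (68.2%) were higher and none lower, near the 63.1% higher over all ribosomal protein genes tested. Over all genes tested 21.7% were higher and 17.7% lower. The median log2 fold change of the 22 was 0.81, the same as for all ribosomal protein genes. Of the MDM2-binding pair, Rpl11 was at 629, 892 and 494 CPM in Asrij low and 1361, 1048 and 1164 in Asrij high (0.83 ± 0.24, adjusted p = 0.0214), and Rpl5 at 950, 1396 and 719 against 1789, 1405 and 1617 (0.65 ± 0.25, adjusted p = 0.0668). Both were separate between the groups, Rpl5 by the gap between 1396 and 1405 CPM, and the exons of Rpl5 overlap those of Fam69a by 953 bases on the opposite strand. Rpl11 lost its call without low replicate 1 (adjusted p = 0.0741), low replicate 3 (0.0545) or high replicate 1 (0.0671). Its call was also lost with library totals alone (0.0876) and with upper quartile scaling (0.0566). Rps14, the gene of the 5q minus syndrome, was at 1093, 1698 and 998 CPM against 2776, 1900 and 2406 (0.90 ± 0.25, adjusted p = 0.0193). It lost its call without low replicate 1 (0.0767), low replicate 3 (0.0564) or high replicate 1 (0.0619), and with library totals alone (0.0635). Rps6, the substrate of S6 kinase, was at 774, 1068 and 609 CPM against 1206, 1109 and 1090 (0.47 ± 0.22, adjusted p = 0.118). Rpsa, which also serves as a laminin receptor, was at 1418, 1687 and 857 against 2123, 1990 and 1787 (0.57 ± 0.25, adjusted p = 0.0995). Neither was called, although every Asrij high library was above every Asrij low library.

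Levels were also divided by the kilobases of coding sequence of each gene. In the large subunit the highest belonged to Rpl41 with 4527 ± 1154 in Asrij low and 13530 ± 2842 CPM per kilobase in Asrij high (SD, n = 3), Rpl13a (2169 ± 622 and 3803 ± 384), Rpl28 (2079 ± 543 and 3752 ± 472) and Rpl37a (1277 ± 321 and 2216 ± 303). Rpl41 stood well above the next gene on this measure, while Rpl13a and Rpl28 did not differ beyond their spread. Coding length leaves out untranslated exon bases, which counts can include, so a gene with a short coding part can rank too high. Rpl41 has 138 coding bases out of 718 exon bases, and Rpl13a 609 out of 1132. Levels were not compared per kilobase of exon. In the small subunit the highest levels belonged to Rps14 (2788 ± 839 and 5211 ± 971), Rps3 (1997 ± 583 and 3173 ± 440), Rps23 (1387 ± 324 and 2909 ± 356) and Rps2 (1044 ± 253 and 2750 ± 332). Of these 8 genes Rps3 was not called (log2 fold change 0.67). The 8 were ranked on the mean of both groups' levels, which favours genes that are higher in Asrij high. The number called among them is therefore no separate result, and 63.1% of all 84 ribosomal protein genes tested were called higher. The call of Rps23 (1.07, adjusted p = 0.00424) stood in all 14 alternative fits. Those of Rpl13a (0.81, adjusted p = 0.0235), Rpl28 (0.85, 0.0141) and Rpl37a (0.80, 0.0184) were lost when library totals alone were used (0.105, 0.0551 and 0.109), and each without at least 1 library: Rpl13a without low replicate 1 (0.0703) or high replicate 1 (0.0691), Rpl28 without low replicate 1 (0.0605), and Rpl37a without high replicate 1 (0.0702). With upper quartile scaling the calls of Rpl13a (adjusted p = 0.0621) and Rpl37a (0.0638) were lost too. Exons of Rpl13a share 621 bases with Gm45713 on the same strand, so its count is uncertain.

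The sequence around the start of transcription is shown for 7 of the genes that have an entry in RefSeq's promoter table (build GRCm38.p6). The table matched 63 of the 86 genes. The 7 genes, with large and small differences, were chosen after their values were seen, and other such genes with an entry are not shown. Each line gives the 30 bases before the start and the first 20 of the transcript, 5′ to 3′ on the gene's strand. Capitals mark the longest pyrimidine run that reaches within 10 bases of the start, at its full length. A run can lie wholly before the start, as in Rps25 and Rps27l, so it is not the same as a TOP motif.
Rps27l (chr9:66946056-66946105, plus strand): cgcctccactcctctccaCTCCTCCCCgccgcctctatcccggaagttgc
Rpl41 (chr10:128549149-128549198, minus strand): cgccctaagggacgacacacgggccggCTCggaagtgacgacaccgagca
Rps25 (chr9:44407684-44407733, plus strand): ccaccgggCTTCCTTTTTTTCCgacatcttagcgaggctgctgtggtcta
Rpl35 (chr2:39005112-39005161, minus strand): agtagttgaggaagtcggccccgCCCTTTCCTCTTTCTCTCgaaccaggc
Rpl22 (chr4:152325696-152325745, plus strand): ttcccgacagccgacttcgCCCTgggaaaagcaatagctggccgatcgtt
Rpl22l1 (chr3:28805478-28805527, plus strand): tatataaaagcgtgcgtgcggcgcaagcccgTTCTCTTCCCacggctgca
Rps9 (chr7:3704011-3704060, plus strand): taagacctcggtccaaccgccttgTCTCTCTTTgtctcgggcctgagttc

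Long and short runs occurred at both ends of the range of differences: the run was 18 bases in Rpl35 and 14 in Rps25, but 3 in Rpl41, 4 in Rpl22 and 9 in both Rps27l and Rps9. It was 6 in Rps2, 5 in Rpl27 and 4 in Rps19, whose sequences are not shown. By the same measure, which does not require the run to begin at the start, a run of 8 or more was found in 28 of the 63 genes (44.4%), against 13.5% of all 27025 promoters in the table. The median log2 fold change was 0.89 over the 28 tested genes with such a run and 0.70 over the 33 tested genes with a shorter one. In the 300 bases from 250 before to 50 after the start, searched on both strands, the ETS-type motif CCGGAAG was in 38.1% of the ribosomal protein genes and 9.12% of all promoters, the SP1-type GGGCGG in 58.7% and 35.9%, the YY1-type AAGATGG in 14.3% and 6.48%, the E-box CACGTG in 7.94% and 7.24%, and TATAAA in 11.1% and 14.2%. None of these motifs contains another. Neither CCGGAAG nor any of the other 4 was found in that window of Rpl22 or Rps9. A match is a description of the letters and not a measured binding site.

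A second fit asked which genes changed their share within the ribosomal protein counts, by taking the summed counts of the 86 genes as the library size. Of the 84 genes tested, 8 had a larger and 3 a smaller share in Asrij high at an adjusted p under 0.05, where 5.48% and 35.3% of all genes tested were so called. This scaling sets the ribosomal protein genes near 0 (median log2 change 0.02) and moves all genes tested to a median of -0.86. The 5.48% and 35.3% carry that shift and are not a like background for the 8 and 3. Rps27l rose from 0.0140%, 0.0236% and 0.0277% of the ribosomal protein counts in Asrij low to 0.0768%, 0.0478% and 0.0860% in Asrij high (log2 change in share 1.69 ± 0.36 SE, adjusted p = 0.00723). The shares were separate between the groups, and the call stood in all 10 alternative fits, with an adjusted p up to 0.0370. Rpl41 took 1.75%, 1.99% and 2.12% against 3.67%, 2.95% and 3.33% (0.76 ± 0.18, adjusted p = 0.0112). Rps27a, Rps25 and Rps2 gained 0.66, 0.66 and 0.59, and Rpl27 and Rpl35, close to the threshold, gained 0.57 and 0.51 (adjusted p = 0.0447 and 0.0469).

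Rpl22 and Rps9 were among the genes with a smaller share. Rpl22 took 0.424%, 0.430% and 0.444% of the ribosomal protein counts in Asrij low and 0.252%, 0.272% and 0.260% in Asrij high, with little spread inside either group (log2 change in share -0.73 ± 0.17 SE, adjusted p = 0.0111). Rps9, in the small subunit, took 2.73%, 2.45% and 2.45% against 1.60%, 1.82% and 1.76% (-0.56 ± 0.17, adjusted p = 0.0279). The shares of both genes were separate between the groups. The number of genes called in this fit fell from 11 to 3 without Asrij low replicate 1, and to 2 without Asrij high replicate 1 or without Asrij high replicate 3. Rps27l stayed called in all of these, and Rpl22 without low replicate 1. The adjusted p of Rpl22 was then 0.0716 and 0.0632 without high replicates 1 and 3, with a change in share of -0.70 and -0.72.

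**Figure D4:**
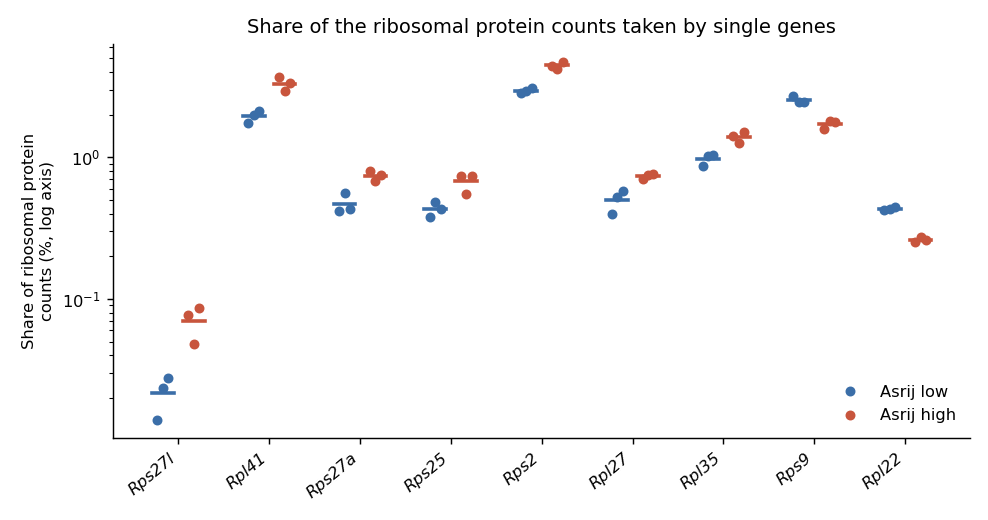
Share of the summed ribosomal protein counts (%, log axis) taken by 9 of the genes called in the fit within the ribosomal protein counts, in the 3 Asrij low (blue) and 3 Asrij high (red) libraries, with a short line at each mean. The 7 genes from Rps27l on the left are higher in Asrij high, and Rps9 and Rpl22 on the right are lower, without overlap in any of the 9.

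Paralogue forms, which can replace the main form in some ribosomes, were compared with it inside each library as a ratio of counts. The ratio was formed for the 5 pairs in which both genes had counts in every library. Rps27l was 12.3%, 27.5% and 33.8% of Rps27 in Asrij low and 68.5%, 42.6% and 102% in Asrij high, so that in 1 library the paralogue outnumbered the main form. The ratio was 2.97-fold higher in Asrij high (1.57 on the log2 scale; exact two-sided permutation test p = 0.1, adjusted over 5 pairs 0.167), with no overlap between the groups. Rps27 itself was at 36.5, 34.8 and 19.7 CPM against 70.1, 58.0 and 45.0 (0.93 ± 0.27, adjusted p = 0.022). It lost its call without low replicate 3 (0.0518) or high replicate 1 (0.0927), with library totals alone (0.101) and with upper quartile scaling (0.0682). Rpl22l1, a paralogue that Rpl22 protein is known to repress, was 8.16%, 4.25% and 8.17% of Rpl22 in Asrij low and 14.4%, 13.5% and 18.2% in Asrij high, a 2.32-fold higher ratio (exact permutation p = 0.1, adjusted 0.167), again without overlap. In CPM, Rpl22l1 was at 11.1, 7.38 and 8.69 against 22.7, 19.0 and 25.3 (log2 fold change 1.30 ± 0.25 SE, adjusted p = 0.00372), and Rpl22 was not called. Exons of Rpl22l1 overlap those of Gm33051 by 159 bases on the opposite strand, so with strand handling unknown its count is uncertain.

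Rpl36al, which the symbol rule does not take in, was 26.2%, 19.9% and 24.6% of Rpl36a in Asrij low and 37.1%, 35.4% and 37.6% in Asrij high, a 1.57-fold higher ratio without overlap (exact permutation p = 0.1, adjusted 0.167). Its own log2 fold change was 1.59 ± 0.20 (adjusted p = 6.33e-04), and that of Rpl36a 0.90 ± 0.24 (adjusted p = 0.0158). The call of Rpl36a was lost without low replicate 1 (0.0635), low replicate 3 (0.0548) or high replicate 1 (0.0506), and with library totals alone (0.0511). Rpl7l1, a relative of Rpl7 that acts in large subunit assembly, was at 85.9, 126 and 79.9 CPM against 199, 161 and 231 (1.02 ± 0.22, adjusted p = 0.00578). Its ratio to Rpl7 was 21.9%, 29.6% and 33.5% against 35.5%, 33.0% and 42.0%, which overlapped between the groups (exact permutation p = 0.2, adjusted 0.25). The tissue-restricted paralogues were near or at 0. Rpl10l, known from the testis, had 0 counts in all 6 libraries, which allows at most 0.0412 to 0.121 CPM per library by total counts (3 counts), and Rpl3l, known from heart and skeletal muscle, had 34 counts in Asrij low replicate 1, 0 in both other Asrij low libraries and 4 to 6 in Asrij high. Both were below the filter and were not tested. Their main forms Rpl10 and Rpl3 had log2 fold changes of 0.57 and 0.47 (adjusted p = 0.0571 and 0.128), and Rpl39, the main form of Rpl39l, was called at 0.94 ± 0.20 (adjusted p = 0.00505).

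**Figure D5:**
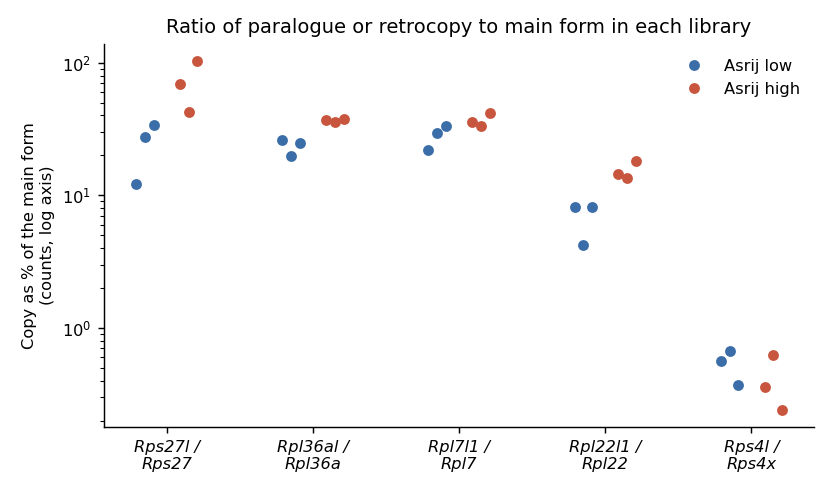
Counts of a paralogue or retrocopy as a percentage of the counts of its main form (log axis) in the 3 Asrij low (blue) and 3 Asrij high (red) libraries, for 5 pairs. Rps27l over Rps27, Rpl36al over Rpl36a and Rpl22l1 over Rpl22 are higher in all Asrij high libraries, and the other 2 pairs overlap.

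Retrocopies, which arose by reverse transcription of the mRNA and can share reads with it, followed their main forms or were barely counted. Rpl6l was 13.1% to 15.1% of Rpl6 over the 6 libraries and Rps12l1 22.6% to 41.9% of Rps12. Rpl6l had a log2 fold change of 0.96 and Rps12l1 of 0.90 (adjusted p = 0.0084 and 0.00923), beside 0.91 for Rpl6 and 1.30 for Rps12. Rpl32l was at 0.309 to 1.17 CPM and Rps4l at 2.39 to 7.97 CPM, and neither was called. Rps4l was 0.240% to 0.665% of Rps4x, with overlap between the groups (exact permutation p = 0.4); Rps4x itself, an X-linked gene, was not called (0.42 ± 0.23, adjusted p = 0.188). How reads that match several places were treated is not given in the sources used here, so the division of counts between a main form and its copies is uncertain. The same holds for 321 rows of ribosomal protein pseudogenes in the table. Of 196 that passed the filter, 54 were higher and none lower in Asrij high, with a median log2 fold change of 0.71; these 54 are 27.6% of those tested, near the 21.7% over all genes. Their summed level was 14.6% ± 0.841 of that of the ribosomal protein genes in Asrij low and 14.1% ± 0.405 in Asrij high (SD, n = 3), a difference smaller than the spread.

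Gene features were weakly related to the differences among the core genes, given here as a description over 76 genes that share 6 libraries. The log2 fold change had a Pearson r of -0.23 and a Spearman rho of -0.32 with coding length, and r between -0.06 and 0.00 with mean level, the number of pseudogene rows and the number of small nucleolar RNA genes inside the gene. Beside the counts that follow, 63.2% of the 76 core genes and 21.7% of all genes tested were called higher. Of the 9 core genes with a coding sequence under 300 bases, 8 were called higher (median 0.93), the exception being Rps29 (0.77, adjusted p = 0.0744); of the 13 over 700 bases, 5 were called (median 0.67). Of the 24 core genes with 5 or more pseudogene rows 13 were called (median 0.73), and of the 14 with none 11 (median 0.89). The 29 genes that host a small nucleolar RNA had a median of 0.70 and the other 47 one of 0.85.

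Some ribosomal protein genes and copies carry symbols outside the rule. Of 9 such rows 3 (33.3%) were higher and none lower, where 21.7% and 17.7% of all genes tested were so called. The 9 rows had a median log2 fold change of 0.49. They included Rpl36al, described above, and Fau, a ubiquitin-like fusion that yields a small subunit protein (0.57 ± 0.20, adjusted p = 0.042). Fau lost its call without low replicate 2 (0.0526), low replicate 3 (0.121), high replicate 1 (0.142), high replicate 2 (0.0565) or high replicate 3 (0.0795). Its call was also lost with library totals alone (0.309), upper quartile scaling (0.209) and RLE size factors (0.0503). Rps3a1, the main gene of a small subunit protein, was at 838, 1137 and 619 CPM against 1113, 1037 and 1056 (0.31 ± 0.23, adjusted p = 0.317), and Rack1, a signalling scaffold on the small subunit, at 643, 587 and 347 against 718, 770 and 638 (0.43 ± 0.24, adjusted p = 0.177). Rps27rt, a further copy of Rps27, was at 12.1, 6.48 and 5.98 CPM against 11.1, 7.82 and 6.58, with a log2 fold change of 0.05.

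The machinery that assembles ribosomes differed in the same direction as their proteins. For comparison, 21.7% of all genes tested were called higher and 17.7% lower. Of 31 large subunit assembly genes (including Rpl7l1) all 31 were higher, with a median log2 fold change of 1.12. They included Mrto4, a placeholder for the stalk base during assembly, at 25.2, 22.1 and 16.6 CPM against 120, 82.4 and 110 (2.28 ± 0.22, adjusted p = 2.39e-04), the export adaptor Nmd3 (2.26, adjusted p = 6.08e-04) and Brix1 (1.67, adjusted p = 5.73e-04). Of 26 small subunit assembly genes 23 were higher and none lower (median 1.31), among them Bysl (1.72), the box C/D core protein Nop56 (1.77) and Heatr1 (1.50). Of 19 chaperones and import factors for ribosomal proteins 15 were higher (median 0.91), such as the importins Ipo5 (1.52) and Ipo7 (1.32) and Heatr3, which brings RPL5 into the nucleus (1.47), and 1 was lower, Nacad (-1.51, adjusted p = 0.00715).

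The lists of translation factors differed in how many members were called, beside 21.7% higher and 17.7% lower over all genes tested. Of 15 eIF3 subunits and polyA-related factors 13 were higher and none lower (median 1.09), including Eif3g (1.81), Eif3b (1.54) and Eif3j1 (1.87). Of 12 genes listed under elongation and termination 7 were higher (median 1.22), including the release factor Etf1 (1.74) and Eif5a (1.40). Eef1e1 (1.89) was also among the 7, although it is not itself an elongation or termination factor. In the same list 1 gene was lower, Eef2k, the kinase that inhibits elongation factor 2 (297, 291 and 221 CPM against 194, 197 and 193, log2 fold change -0.47, adjusted p = 0.0479). Of 14 genes of TOP mRNA translation control 7 were higher and none lower (median 0.61). Larp1, which binds TOP mRNAs, was at 383, 464 and 351 CPM against 901, 763 and 789 (1.03 ± 0.18, adjusted p = 0.00218), the S6 kinase gene Rps6kb1 differed by 1.12, and Eif4ebp1, an inhibitor of cap-dependent initiation, by 1.69. Of 17 genes of ribosome quality control and the MDM2 response 11 were higher (median 0.63), including Hbs1l (1.18), Usp10 (1.20) and G3bp1 (0.94). The 1 lower gene was Cdkn1a, the cell cycle inhibitor p21, at 4.54, 6.62 and 5.14 CPM against 2.08, 3.25 and 2.20 (-1.11 ± 0.39, adjusted p = 0.0459). The count of 3 lower genes in these lists varied with the libraries used: 1 was called without Asrij low replicate 1, low replicate 2, high replicate 1 or high replicate 3, and also without the filter on low counts, and 2 were called without low replicate 3 or high replicate 2.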

How the data were processed

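Bulk RNA was sequenced from 3 Asrij low and 3 Asrij high LT-HSC samples. Per the labels' protocols, RNA was column-purified, depleted of ribosomal RNA and made into directional libraries, while the molecule field names polyA RNA. The authors deposited a table of raw counts per gene symbol. FastQC, HISAT2, SAMtools, Subread and build mm10 are named in the submitters' processing notes; their versions, the annotation, and how strand and multiply mapped reads were handled: not given in the sources used here. Counts were tested with edgeR 4.0.16 (quasi-likelihood, TMM scaling, R 4.3.3), a low-count filter with a minimum count of 10 and a total of 15, and Benjamini-Hochberg adjustment over 21445 genes; levels are TMM-scaled CPM. Standard errors were derived from the test statistic. The fit within the ribosomal protein counts used their sum as library size. Paralogue ratios used counts plus 0.5. The script was tested on simulated data, where 14 of 95 changes of 2-fold and 55 of 92 changes of 4-fold were recovered. There were 7 false calls over 20780 genes. Only these few genes, drawn at all levels, were changed in the simulation, whereas 21.7% of all genes tested were called higher and 17.7% lower in the data. The recovery in the simulation therefore does not carry over to the ribosomal protein genes. A gene that was not called can still differ.

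Genes named are the paralogue forms and their main forms, those below the filter or next to the threshold, the 6 largest and 6 smallest fold changes, up to 6 share changes in each direction, the 4 highest per kilobase in each subunit, 10 chosen genes, and up to 3 genes per pathway list by p; Rpl27, Rpl35, Rps29 and the 3 lower pathway genes were named after their values were seen. Some members called for by this rule are counted in the totals but not reported here. The members and lists were chosen with earlier results of these data known. Restricting ratios to pairs counted in every library was also decided after the values were seen. Coordinates and lengths come from GENCODE M21 and RefSeq (GRCm38, the same assembly as mm10). Alternatives were other scalings, no filter, DESeq2 1.42.0, limma-voom 3.58.1, the replicate number as a block and leaving out libraries. Same-numbered libraries of the 2 groups were checked for shared deviations.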

Additional observations from a re-analysis of the deposited data

How the results depend on the processing

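The count of 53 ribosomal protein genes higher in Asrij high was 31 with library totals alone and 35 to 64 when 1 library was left out; no gene was lower in any alternative, and the median log2 fold change of the 84 genes stayed between 0.53 and 1.03. Library totals and upper quartile scaling moved the median of all genes by -0.27, and 76 of 84 ribosomal protein genes were then above 0; of all calls 40.2% were higher with library totals, against 55.1%. Among the uncalled genes named in the text, the direction of 6 turned. Under library totals and upper quartile scaling, Rpl22 was at -0.20 and -0.19, Rps9 at -0.0444 and -0.0326, Rps19 at -0.0217 and -0.00909, and Rps27rt at -0.25 and -0.23. Omitting low replicate 3 together with high replicate 2, Rpl22 was at -0.0770, Rpl32l at -0.10, Rps19 at -0.13 and Rps27rt at -0.10. Rps4l was at 0.0204 without a filter and Rps27rt at -0.0236 in limma-voom. With 1 library left out, values ran from -0.11 to 0.30 for Rpl22, -0.42 to 0.44 for Rps4l, -0.0940 to 0.76 for Rpl32l, -0.0208 to 0.45 for Rps19 and -0.23 to 0.48 for Rps27rt; the cause was not tested. The count of 11 genes with a changed share of the ribosomal protein counts became 2 to 12 with 1 library left out, newly called genes included. Of 10 alternative fits, the call stood in 3 for Rpl35, 4 for Rpl27, 5 for Rps9 and 6 for Rps25. It stood in 7 for Rps2, Rps27a and Rpl41, 8 for Rpl22 and 10 for Rps27l. The ratio of large over small subunit counts, Asrij high over Asrij low, was 1.09 without the 3 most abundant genes of each subunit, against 1.03, and the groups then did not overlap. Same-numbered libraries deviated together with correlations of 0.01, 0.05 and 0.22, so the numbers were not taken as pairs; 1 of the 3 Asrij low libraries correlated best with its own number. With the replicate number as a block, 57 genes were called higher, and 7 had a changed share; of the 53 called genes 52 kept their call, Rps15 did not (adjusted p = 0.0562), and Rplp0 was among 5 newly called (0.0357).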
